A study of Homo sapiens with 4 samples.

Results

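The expression of 48 genes of the DNA replication machinery was followed in HOS and U2-OS cells, 2 established human osteosarcoma lines, with and without OGE. The genes were chosen by symbol for what they do at origins, at forks and in nucleotide supply. All 48 were measured, each by 1 probe set, among 18417 genes in all. The series holds 4 groups of 1 array each: HOS with 0 μg/mL OGE, HOS with 600 μg/mL, U2-OS with 0 μg/mL and U2-OS with 600 μg/mL. Cells were exposed for 24 h, and the labels do not spell out the name OGE. Levels are log2 values made by RMA, so a difference of 1 is 2-fold. No error within a line can be had from single arrays, and nothing in the labels says that the lines were grown as more than 1 culture per condition.

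Array medians over all probe sets lay between 3.58 and 3.62, and no arrays were identical. The call by size used here asks for a change of at least 1, with the larger of both values at or above its array's median, the floor. Of the 48 genes, 47 reached the floor in each line, and DBF4 did not in either. Of 9 markers of mesenchymal and osteoblast cells, 6 or 7 were at or above the floor on each array. VIM lay between 8.59 and 9.28 and COL1A1 between 7.71 and 10.01, while IBSP and SPP1 were below it on all arrays. All 4 endothelial markers were below the floor on every array, as were the immune markers PTPRC, CD3E, CD14 and LYZ. CD68, a lysosomal protein listed as an immune marker, was at 4.81 and 5.86 in HOS and at 4.20 and 5.55 in U2-OS, without and with OGE, and its part in the results was not tested. Of 6 epithelial markers, 3 or 4 were at or above the floor, KRT8 and KRT18 on every array.

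Replication begins at origins, which are marked by the origin recognition complex. With CDC6 and CDT1 it loads the ring-shaped MCM2 to MCM7 helicase in G1, and the CDC7 kinase with DBF4, CDC45 and GINS then turn the ring into an active helicase at S phase entry. Polymerase alpha with primase starts each new strand, polymerases epsilon and delta extend it on the PCNA clamp that RFC loads, and RPA covers single-stranded DNA. Ribonucleotide reductase, thymidylate synthase and thymidine kinase supply the deoxynucleotides. Many of these genes are E2F targets that are transcribed most at the G1/S transition, so their level in a culture can follow how many cells are cycling.

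In U2-OS with OGE, 12 of the 47 genes at the floor were lower by size and 0 higher, against 7.88% of all genes at the floor lower and 2.94% higher. They were MCM4, MCM6, MCM7, MCM8, GINS1, ORC3, CDC6, GMNN, CDC7, POLA1, PRIM1 and RRM1. With the floor at the 75th percentile, 8 of 36 were lower, against 10.5% of all genes at that floor. MCM8, ORC3, GMNN and CDC7 were then no longer called. In HOS, 2 of 47 were lower by size, MCM6 and POLE2, against a background of 2.18%, and 0 were higher, against 1.7%. MCM6 was the 1 gene lower by size in both lines, a call that quantile normalization ended, with -0.98 in HOS. Of all genes at the floor in both, 1.09% were lower and 0.768% higher in both. The median change over all 48 genes was -0.11 in HOS and -0.71 in U2-OS, beside 0.02 and 0.03 over all genes. At any size, 43 of the 48 were lower in U2-OS and 27 in HOS, against 46.2% and 46.6% of all genes. In these cultures, fewer cells in S phase and less RNA per cell cannot be told apart.

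**Figure D1:**
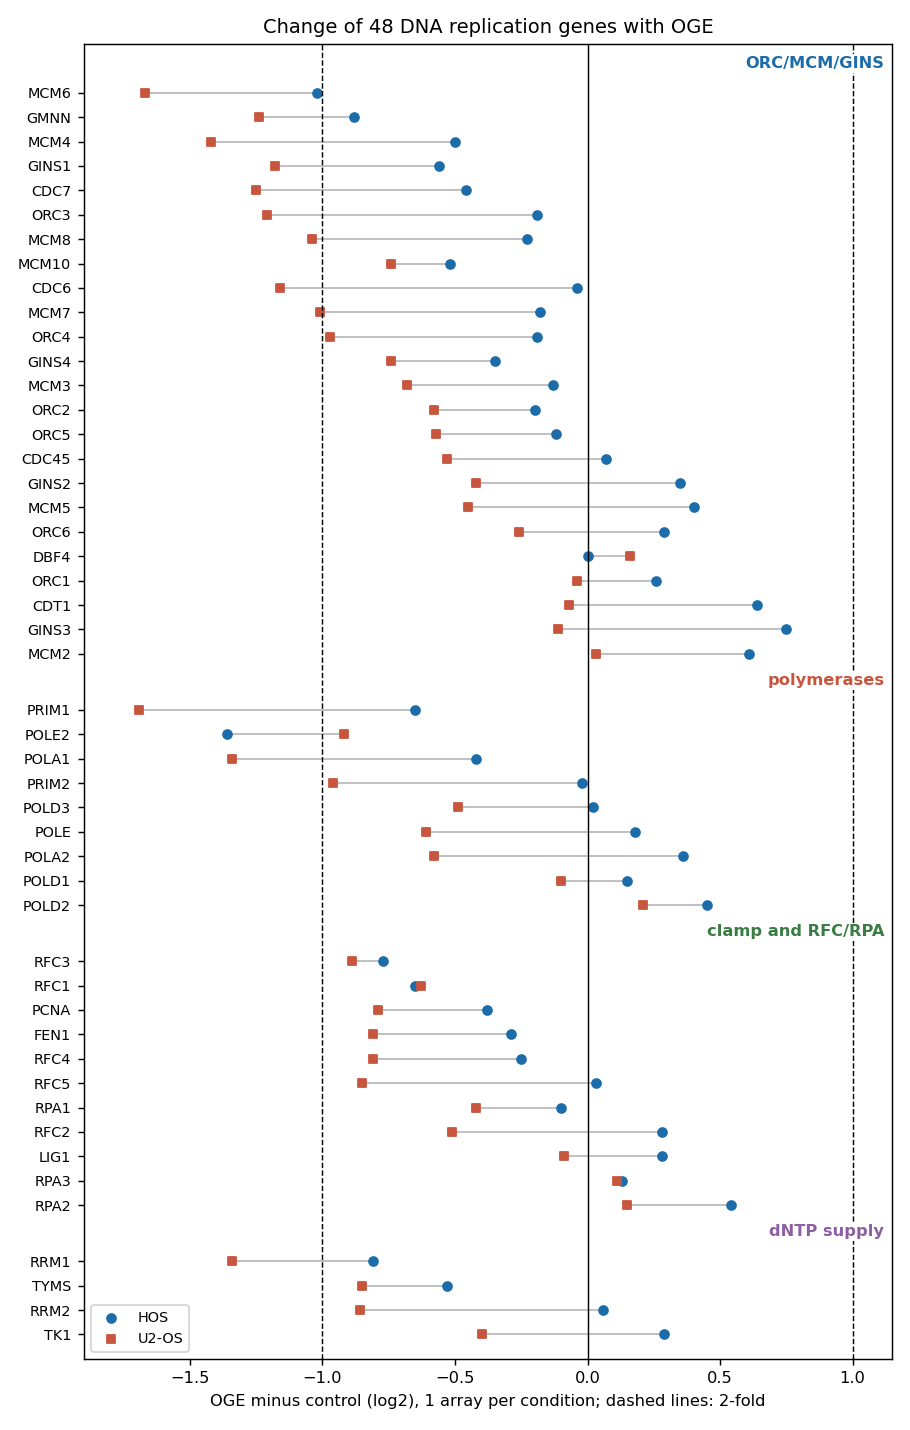
Change with OGE (log2, 600 minus 0 μg/mL) of each of the 48 genes in HOS (circles) and U2-OS (squares), 1 array per condition, ordered within each subgroup by the mean of both lines; dashed lines mark 2-fold. The U2-OS square lies left of the HOS circle for 45 of the 48 genes, and 2 circles and 12 squares reach the lower dashed line.

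Across the lines, limma with cell line as a block called 0 of the 48 genes for OGE, and 0 of 18417, with a smallest adjusted p of 0.228 among the 48. At an unadjusted p under 0.05 there were 15 of the 48, each lower, against 8.52% of all genes lower at that level and 5.67% higher. The fit treats HOS and U2-OS as the repeats and has 1 residual degree of freedom before moderation. After quantile normalization limma called MCM6, POLE2 and GMNN, with adjusted p of 0.0446, 0.0468 and 0.0491, among 264 of the 18417 genes (1.43%) called at that setting. Over all limma settings, their adjusted p ranged from those values to 0.761.

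Promoter windows from RefSeq (GRCh38.p14, 250 bases before to 50 after a transcription start) were matched by symbol for 42 of the 48 genes. MCM4, MCM5, GINS4, POLD3, RPA2 and RPA3 had none. An E2F-type word, TTTCCCGC, TTTCGCGC, TTTGCCGC or TTTGGCGC on either strand, was found for 21 of the 42, against 5.51% of the 14239 measured genes with a window and 3.31% of all 35116 windows. Stretches that hold such a word upstream of the start are shown for genes lower by size, with the word in capitals and every sequence read along the gene's own strand.
MCM6 (chr2:135876492-135876625, minus strand): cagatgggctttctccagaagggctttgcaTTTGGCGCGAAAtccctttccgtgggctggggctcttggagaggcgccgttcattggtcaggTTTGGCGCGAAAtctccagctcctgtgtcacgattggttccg
MCM7 (chr7:100101547-100101614, minus strand): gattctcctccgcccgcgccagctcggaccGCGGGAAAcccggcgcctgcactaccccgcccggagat
ORC3 (chr6:87590093-87590134, plus strand): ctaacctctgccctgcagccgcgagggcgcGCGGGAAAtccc
GMNN (chr6:24775303-24775370, plus strand): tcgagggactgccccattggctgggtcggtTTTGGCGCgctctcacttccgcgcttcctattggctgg
CDC7 (chr1:91501014-91501111, plus strand): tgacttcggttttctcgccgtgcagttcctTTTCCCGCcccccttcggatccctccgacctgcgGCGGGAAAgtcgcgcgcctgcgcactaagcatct
POLA1 (chrX:24693751-24693818, plus strand): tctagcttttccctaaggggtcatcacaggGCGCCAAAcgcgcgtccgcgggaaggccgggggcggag
The 3 genes with the highest mean change among those with an upstream word are shown for comparison.
CDT1 (chr16:88803724-88803788, plus strand): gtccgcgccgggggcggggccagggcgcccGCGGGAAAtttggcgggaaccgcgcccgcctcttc
LIG1 (chr19:48170421-48170488, minus strand): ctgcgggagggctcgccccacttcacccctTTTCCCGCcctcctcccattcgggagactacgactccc
GINS2 (chr16:85688955-85689015, minus strand): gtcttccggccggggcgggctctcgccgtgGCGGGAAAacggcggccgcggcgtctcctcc
In MCM6, both capital blocks join 2 overlapping words, TTTGGCGC and the reverse complement of TTTCGCGC, so its stretch holds 4 words. CDC7 holds 2, and the other stretches hold 1 each. Of the 11 genes lower by size in U2-OS with a window, 9 held an E2F-type word, and of the other 31 genes 12 did. Genes with the word had median changes of -0.19 in HOS and -0.89 in U2-OS, and genes without it of -0.02 and -0.58. Their ranges overlapped widely, from -1.67 to 0.03 with the word and from -1.69 to 0.21 without it in U2-OS. The CCAAT box was found for 25 of the 42, against 42.2% of measured genes. It was found for 10 of the 11 lower by size in U2-OS and for 15 of the other 31. Genes with the box had median changes of -0.18 in HOS and -0.79 in U2-OS, and genes without it of -0.02 and -0.58. The ranges in U2-OS overlapped, from -1.69 to 0.21 with the box and from -1.25 to 0.16 without it. The words TTTGAA and TTCGAA of the cell cycle homology region were found for 3 of the 42, MCM6, DBF4 and RRM1, against 17.4%. These matches are a description of the windows, and no word of one motif contains a word of another.

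Among the 24 origin and helicase genes, 23 reached the floor in each line, and 9 were lower by size in U2-OS and 1 in HOS. The shares of all genes at the floor were 7.88% and 2.18%. The medians of the 24 genes were -0.71 in U2-OS and -0.155 in HOS. The 6 subunits of the MCM helicase had unequal changes. MCM6 was at 7.03 and 6.01 in HOS and at 7.21 and 5.54 in U2-OS, without and with OGE, and its control and OGE levels did not overlap. Its mean change was -1.34 ± 0.46 (SD, n = 2 lines), with an adjusted p of 0.228 in limma. MCM4 went from 7.59 to 7.09 in HOS and from 7.40 to 5.98 in U2-OS, and MCM7 from 8.38 to 8.20 and from 8.21 to 7.20. Both were lower by size in U2-OS, MCM7 just past the threshold at -1.01. MCM2 went the other way in HOS, from 6.58 to 7.19, and was nearly level in U2-OS, at 6.35 and 6.38. MCM5 was higher by 0.40 in HOS and had a change of -0.45 in U2-OS, and MCM3 had changes of -0.13 and -0.68. Changes within the ring therefore ran from -1.02 to 0.61 in HOS and from -1.67 to 0.03 in U2-OS. MCM8, a helicase paralogue outside this ring, went from 5.45 to 5.22 in HOS and from 5.27 to 4.23 in U2-OS.

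The GINS subunits join CDC45 and the MCM ring at the fork. GINS1 had levels of 5.66 and 5.10 in HOS and of 5.94 and 4.76 in U2-OS, where it was lower by size. GINS3 was at 5.61 and 6.36 in HOS, the largest positive change among the 48 at 0.75, and at 6.07 and 5.96 in U2-OS. GINS2 had changes of 0.35 and -0.42 and GINS4 of -0.35 and -0.74. CDC45 had changes of 0.07 and -0.53, and MCM10, which binds the ring as it becomes active, of -0.52 and -0.74. CDC7, the kinase that triggers firing, was at 4.35 and 3.89 in HOS and at 4.50 and 3.25 in U2-OS, below the floor with OGE in U2-OS. Its partner DBF4 was below the floor on all 4 arrays, at 2.49, 2.49, 2.53 and 2.69.

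For the origin recognition complex, changes of ORC1 to ORC6 in HOS lay between -0.20 and 0.29. In U2-OS all 6 were lower at any size, from -0.04 for ORC1 to -1.21 for ORC3. ORC3 was at 4.77 and 4.58 in HOS and at 4.50 and 3.29 in U2-OS, and was the 1 subunit lower by size. ORC4, below the floor on both OGE arrays, missed the threshold with -0.97, and ORC2 and ORC5 had -0.58 and -0.57. Of the licensing factors, CDC6 was at 7.91 and 7.87 in HOS and at 7.84 and 6.68 in U2-OS. Its change of -0.04 in HOS was above 0 under quantile normalization. CDT1, which loads MCM with CDC6, had changes of 0.64 and -0.07. GMNN, the geminin that holds CDT1 in check after S phase begins, was at 5.66 and 4.78 in HOS and at 5.34 and 4.10 in U2-OS. GMNN had a mean change of -1.06 ± 0.25 (SD, n = 2 lines) and an adjusted p of 0.228 in limma.

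**Figure D2:**
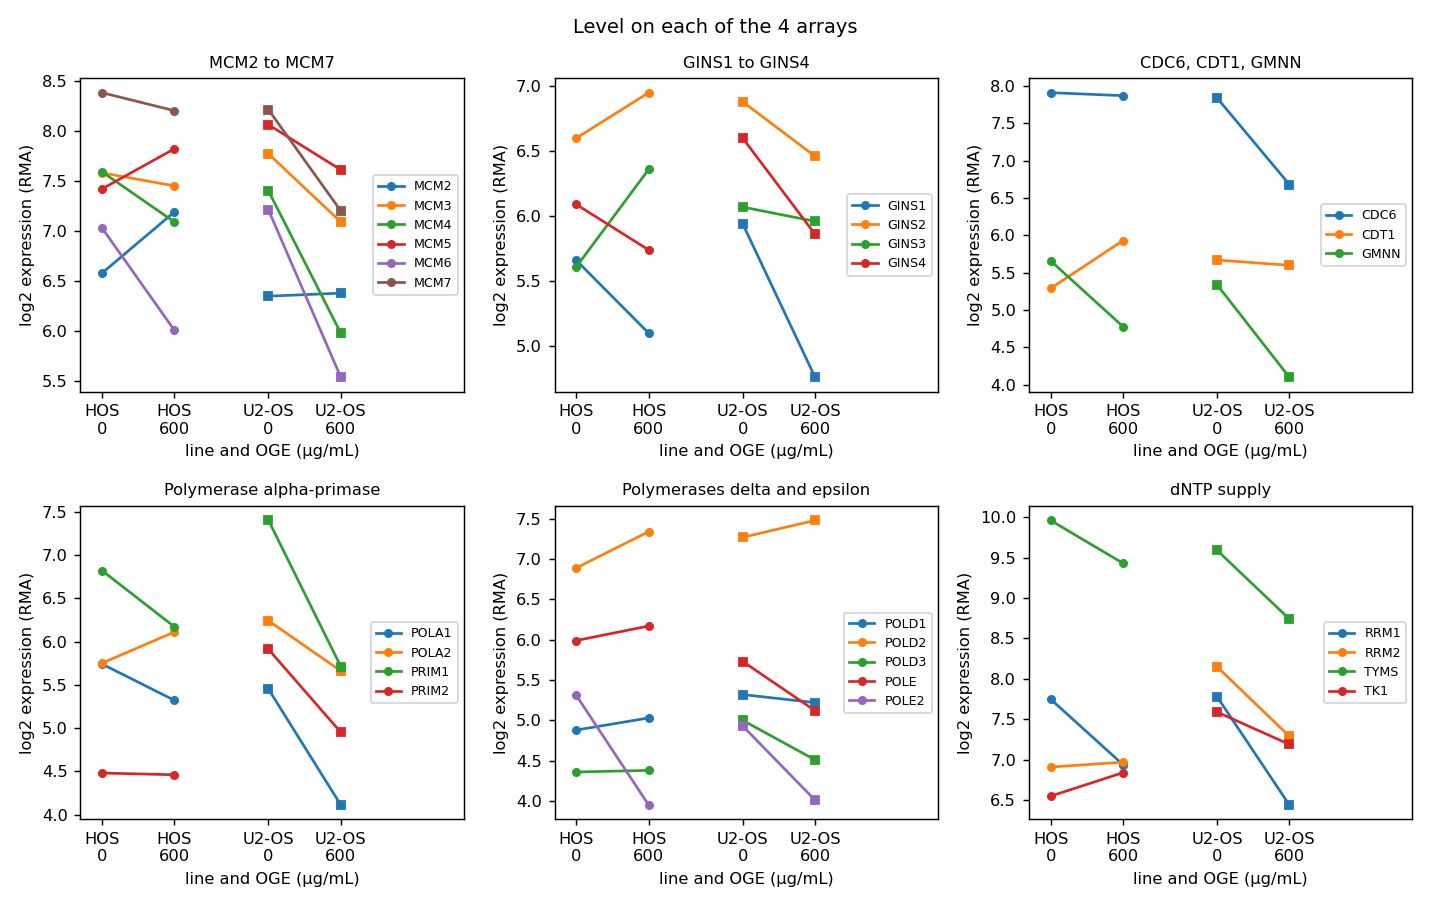
Levels (log2, RMA) on each of the 4 arrays for 6 sets of replication genes, with lines joining the 0 and 600 μg/mL OGE arrays of HOS (circles) and U2-OS (squares). Levels of different genes come from different probes and are not comparable. MCM6, GINS1, GMNN, PRIM1, POLE2 and RRM1 slope downwards in both lines, while MCM2, GINS3 and CDT1 slope upwards in HOS only or more than in U2-OS.

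Of the 9 polymerase genes, 2 were lower by size in U2-OS and 1 in HOS, against 7.88% and 2.18% of all genes at the floor. The medians of the 9 were -0.61 in U2-OS and 0.02 in HOS. The sign of the HOS median did not hold, since quantile normalization gave -0.0275 and cyclic loess -0.029. In polymerase alpha-primase, the catalytic primase PRIM1 was at 6.82 and 6.17 in HOS and at 7.40 and 5.71 in U2-OS, a change of -1.69 that was the lowest of the 48 there. The catalytic POLA1 was at 5.74 and 5.32 in HOS and at 5.45 and 4.11 in U2-OS. The accessory subunit POLA2 had changes of 0.36 and -0.58, and PRIM2, the large primase subunit, of -0.02 and -0.96. All 4 were lower at any size in U2-OS. In polymerase epsilon the subunits parted in HOS. POLE2 was at 5.31 and 3.95 there, the lowest change of the 48 at -1.36, and at 4.93 and 4.01 in U2-OS, where it missed the threshold with -0.92. The catalytic POLE had changes of 0.18 and -0.61. The 3 subunits of polymerase delta had changes between -0.49 and 0.45. POLD2 was at 6.89 and 7.34 in HOS and at 7.27 and 7.48 in U2-OS, higher with OGE in both lines, while POLD1 had changes of 0.15 and -0.10 and POLD3 of 0.02 and -0.49. The sign of POLD3 in HOS turned under quantile normalization and under cyclic loess.

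None of the 11 genes of the clamp, its loader, RPA and the enzymes of Okazaki fragments was called by size. Of all genes at the floor, 2.18% were lower and 1.7% higher in HOS, and 7.88% and 2.94% in U2-OS. The medians of the 11 were -0.10 in HOS and -0.63 in U2-OS. RFC3, a small subunit of the clamp loader, was at 8.27 and 7.50 in HOS and at 7.49 and 6.60 in U2-OS. Its mean change was -0.83 ± 0.08 (SD, n = 2 lines), with an adjusted p of 0.231 in limma. RFC1, the large subunit, had nearly equal changes of -0.65 and -0.63. RFC4 and RFC5 had -0.25 and 0.03 in HOS and -0.81 and -0.85 in U2-OS, and RFC2 had 0.28 and -0.51. The sign of RFC5 in HOS turned after cyclic loess. PCNA had changes of -0.38 and -0.79, and the flap nuclease FEN1 of -0.29 and -0.81. The ligase LIG1, which seals Okazaki fragments, had changes of 0.28 and -0.09. RPA2 was at 5.32 and 5.86 in HOS and at 4.69 and 4.84 in U2-OS, and RPA3 had changes of 0.13 and 0.11. RPA1, the largest subunit of the same trimer, had changes of -0.10 and -0.42.

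For the 4 genes of nucleotide supply the median change was -0.235 in HOS, against -0.855 in U2-OS. Lower by size were 0 of the 4 in HOS and 1 in U2-OS, against 2.18% and 7.88% of all genes at the floor. RRM1, the large subunit of ribonucleotide reductase, was at 7.75 and 6.94 in HOS and at 7.78 and 6.44 in U2-OS. It was lower by size in U2-OS, with a mean change of -1.08 ± 0.37 (SD, n = 2 lines) and an adjusted p of 0.228 in limma. RRM2, the small subunit whose level limits the enzyme in S phase, had changes of 0.06 and -0.86. TYMS, which makes thymidylate from dUMP, was at 9.96 and 9.43 in HOS and at 9.59 and 8.74 in U2-OS. TK1, which salvages thymidine, was at 6.55 and 6.84 in HOS and at 7.59 and 7.19 in U2-OS, so it was higher with OGE in one line and lower in the other. The medians of the 4 subgroups lay between -0.235 and 0.02 in HOS and between -0.855 and -0.61 in U2-OS.

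The change in U2-OS lay below that in HOS for 45 of the 48 genes, against 50.3% of all genes and 53.6% of those that reached the floor in HOS and in U2-OS. The exceptions were POLE2, RFC1 and DBF4. The median of the gene-by-gene difference was -0.57, beside -0.01 over all genes, and it ranged from -1.12 for CDC6 to 0.44 for POLE2. With 1 array per condition this difference between the lines was not tested. In 6 of the 48 genes, MCM5, GINS2, ORC6, POLA2, RFC2 and TK1, the change was at least 0.25 upwards in HOS and at least 0.25 downwards in U2-OS, against 3.36% of all genes. The changes of the 48 genes correlated between the lines at r = 0.755 (Spearman's rho 0.791), beside r = 0.442 over all 18417 genes and 0.554 over the 10810 at the floor in both. The lines share no array, and genes are not independent replicates. At any size, 27 of the 48 were lower in both lines, against 27.3% of all genes, among them POLE2, GMNN, RRM1, RFC3 and MCM6. The 4 higher in both were POLD2, MCM2, RPA2 and RPA3, against 6069 of all 18417 genes. DBF4, below the floor, had changes of 0.00 and 0.16.

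**Figure D3:**
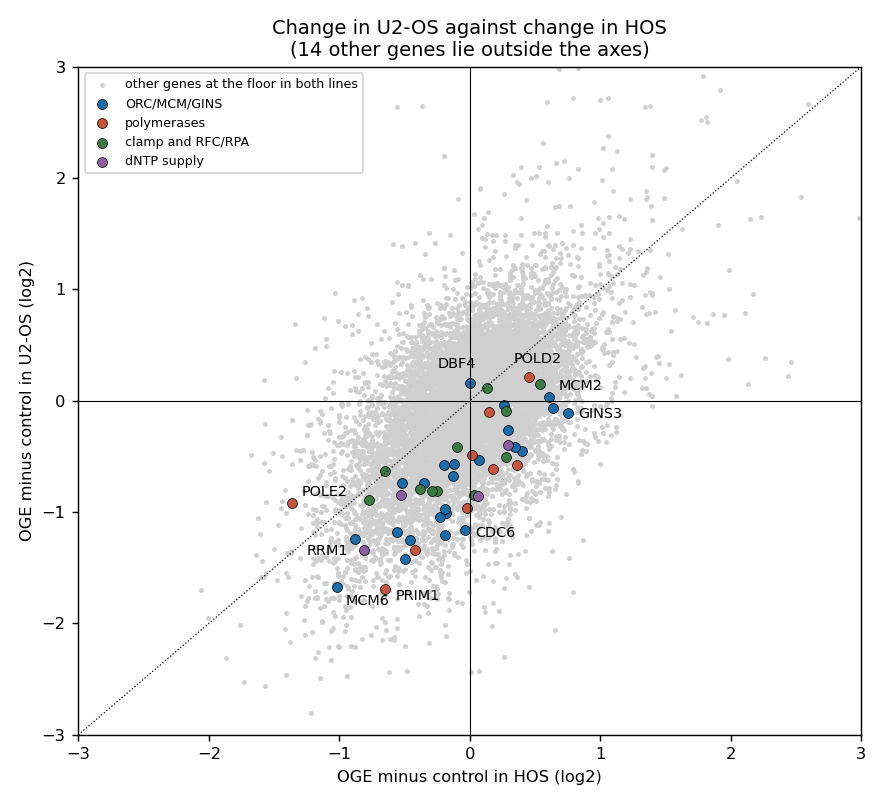
Change with OGE in U2-OS against that in HOS (log2), for the 48 replication genes (coloured by subgroup) and the other genes at the floor in both lines (grey); the dotted line marks equal changes, and 14 other genes lie outside the axes. Nearly all replication genes lie below the dotted line, 45 of 48, and POLE2 stands above it at -1.36 and -0.92.

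Gene span and level were set beside the change. Over the 48 genes, the log10 of the RefSeq gene span correlated with the change at r = -0.186 in HOS and -0.157 in U2-OS. Over all 18392 genes with a span, r was -0.163 and -0.237. Over the 10803 of them at the floor in both lines, r was -0.227 and -0.318. The 12 genes lower by size in U2-OS had a median span of 30.9 kb and the other 36 of 35.2 kb. Mean level correlated with the change of the 48 genes at r = 0.046 and -0.094, beside -0.047 and -0.110 over all genes. The median of the mean level was 5.91 for those 12 genes and 5.96 for the other 36.

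Further replication genes outside the 48 were taken from lists. Of 27 genes of origin firing and fork partners, 26 reached the floor in HOS and 24 in U2-OS. HOS had 1 lower by size and U2-OS 8, against 2.18% and 7.88% of all genes at the floor. In U2-OS 1 was higher, against 2.94%. The medians of the 27 were -0.23 in HOS and -0.39 in U2-OS. DSCC1, a subunit of a clamp loader that serves cohesion, had changes of -1.10 and -1.40, the topoisomerase TOP2A of -0.39 and -1.93, and the checkpoint mediator CLSPN of -0.48 and -1.72. WDHD1, which links polymerase alpha to the helicase, had changes of -0.33 and -1.84. The 1 higher was POLE4, an accessory subunit of polymerase epsilon, with -0.20 and 1.04, named after its values were seen. Histone chaperones had medians of -0.035 and -0.335 over 6 genes, all at the floor in both lines. NASP, with -0.49 and -1.17, was the 1 gene called, lower in U2-OS. Of all genes at the floor, 7.88% were lower there. ASF1A, ASF1B and CHAF1A had changes of -0.14 and -0.58, -0.07 and -0.23, and 0.21 and -0.44.

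Of 22 measured genes of nucleotide synthesis, HOS had 1 lower by size and U2-OS 2, against 2.18% and 7.88% of all genes at the floor. The medians of this list were -0.21 and -0.215. SAMHD1, which breaks down deoxynucleotides, was at 6.82 and 5.41 in HOS and at 5.71 and 3.80 in U2-OS, lower by size in both lines. The purine enzyme PAICS had changes of -0.33 and -1.06, the dUTPase DUT of -0.93 and -0.37 and the folate enzyme MTHFD1 of -0.37 and -0.83. Genes that regulate G1/S had medians of 0.035 and -0.755 over 18 genes. Of these, 17 reached the floor in HOS and 16 in U2-OS, and 1 and 6 were lower by size. The shares of all genes at the floor were 2.18% and 7.88%. SKP2, a ubiquitin ligase subunit, had changes of -2.06 and -1.70, the cyclin CCNA2 of -0.97 and -1.65, the pocket protein RBL2 of -0.42 and -1.57 and the E2F partner TFDP1 of -0.89 and -0.92. CCNE1, the cyclin E that drives origin firing with CDK2, was the 1 gene of that list called higher. It went from 5.46 to 6.86 in HOS, against 7.76 and 7.80 in U2-OS, and was named after its values were seen. Of all genes at the floor, 1.7% were higher in HOS.

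Genes of mitosis act after replication. Of 25 such genes, 23 reached the floor in HOS and 22 in U2-OS. The call lower by size held for 8 in HOS, for 18 in U2-OS and for 7 in both lines at once. The shares of all genes at the floor were 2.18%, 7.88% and 1.09%. The medians of the mitosis genes were -0.77 and -1.46. NUF2, PBK, BUB1 and BUB1B had changes of -1.19, -1.06, -1.13 and -1.05 in HOS and of -2.31, -2.07, -1.98 and -2.04 in U2-OS. The 48 replication genes had medians of -0.11 and -0.71 beside these. All 25 mitosis genes were lower at any size in HOS, against 27 of the 48 replication genes and 46.6% of all genes. Whether the lists differ was not tested. Of 9 measured genes of the replication checkpoint and repair, 6 reached the floor in HOS and 8 in U2-OS. HOS had 0 lower by size and U2-OS 1, against 2.18% and 7.88% of all genes at the floor. The medians over the 9 were 0.00 and -0.38. CHEK1, the checkpoint kinase, had changes of -0.36 and -1.12, CHEK2 of -0.13 and -0.69, and ATR, below the floor on all arrays, of -0.40 and -0.38. WEE1, which holds back mitosis, had changes of -0.14 and 0.83.

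**Figure D4:**
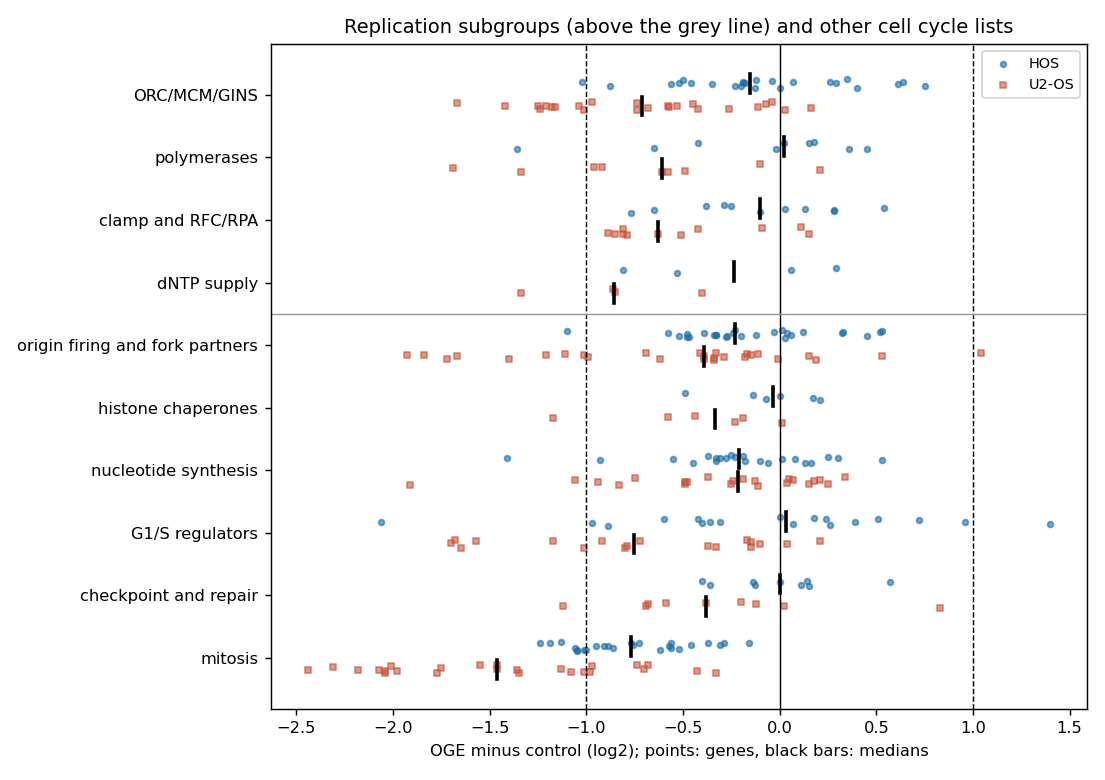
Change with OGE (log2) of each gene (points) and the median (black bars) in HOS (circles) and U2-OS (squares) for the 4 replication subgroups, above the grey line, and 6 other lists. The HOS medians of the replication subgroups lie between -0.235 and 0.02, and that of mitosis genes at -0.77.

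Between the lines, none of the 48 genes differed by size in both treatment states, against 6.18% of genes at the floor, and limma called 0 of them for cell line, against 1.92% of all genes. At an unadjusted p under 0.05 there were 13 of the 48, 9 lower and 4 higher in U2-OS, against 20.7% of all genes in either direction. RPA1 was at 7.96 and 7.86 in HOS and at 7.16 and 6.74 in U2-OS, with a difference of -0.96 ± 0.18 (SE) and an adjusted p of 0.0832 in limma. With quantile normalization, limma called RPA1, RPA2 and PRIM2, with adjusted p of 0.0328, 0.0447 and 0.0472, against 9.57% of all genes. With trend and robust moderation limma called RPA1 and RFC3, with adjusted p of 0.0361 and 0.0476, against 7.11%. Over all settings the adjusted p of RPA1 ran from 0.0328 to 0.154. The RPA subunits did not share a direction, since RPA2 differed by -0.63 without OGE and -1.02 with it, and RPA3 by 0.57 and 0.55.

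Without OGE, PRIM2, RRM2 and TK1 were higher in U2-OS by 1.43, 1.24 and 1.04, and with it by 0.49, 0.32 and 0.35. The median difference over the 48 genes was 0.14 without OGE and -0.465 with it, beside -0.03 and -0.01 over all genes. These differences rest on the same 4 arrays as the changes with OGE and are not independent of them.

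**Figure D5:**
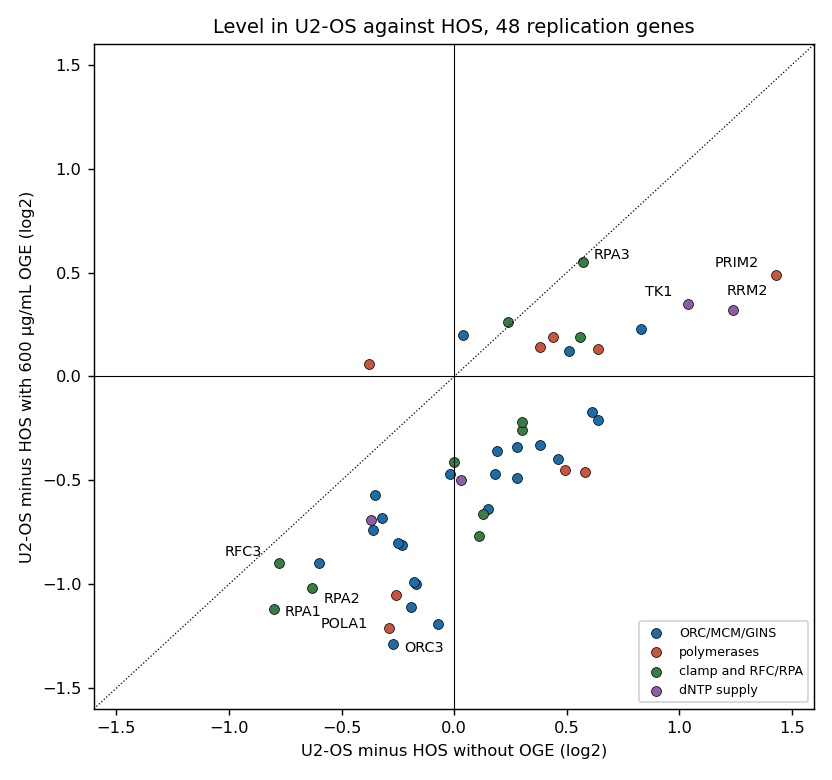
Difference between U2-OS and HOS (log2) with 600 μg/mL OGE against that without OGE for the 48 replication genes, coloured by subgroup; the dotted line marks equal differences. Of the 48 genes, 45 lie below the dotted line, and PRIM2, RRM2 and TK1 have the largest positive differences without OGE, at 1.43, 1.24 and 1.04.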

How the data were processed

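Total RNA from 4 cultures was labelled and hybridised to 1 array each. Per the submitters' processing notes, the authors made the deposited log2 values by RMA (no version given), the scale being taken from their range of 0.16 to 13.41. RMA pulls low signals together and would hide a shift of all genes. For the probe sets' design, a genome build is not stated in the labels.

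The platform annotation of 2016 gives 1 symbol for 19460 of 33297 probe sets, several for 1754 and none for 12083. Symbols were updated by gene ID through RefSeq for 19429. For 769 genes with several probe sets the one with the highest mean was used, giving 18417 genes. A change of at least 1 (log2) with the higher value at or above that array's median was called by size. limma 3.58.1 (R 4.3.3) was fitted on all genes with cell line and OGE as terms, with Benjamini-Hochberg adjustment and a threshold of 0.05. A run on simulated data checked the estimated size of added changes, and the share of them called is not given here. With 1 residual degree of freedom, an absence of calls does not show that genes were unchanged. The fit measures only the spread between these arrays. With 1 array per condition no p-value was computed within a line.

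The genes and lists were chosen with earlier results of these data known. Values on all arrays are given for genes called by size and for the highest and lowest mean change of each subgroup; of each other list, the 4 genes with the largest mean change are named. Alternatives were thresholds of 1.5-fold and 3-fold, other floors, quantile normalization, cyclic loess, the mean of probe sets, and other limma settings.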

Additional observations from a re-analysis of the deposited data

Results flagged for a closer look

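In 6 genes the sign of the change differed between the lines, higher in HOS and lower in U2-OS with OGE by at least 0.25 in each, against 3.36% of all genes. The minimum of 0.25 was chosen after the values were seen, and with 1 array per condition the difference was not tested. The change in U2-OS minus that in HOS was -0.94 for POLA2, -0.85 for MCM5, -0.79 for RFC2, -0.77 for GINS2, -0.69 for TK1 and -0.55 for ORC6. The signs of all 6 held after quantile normalization and after cyclic loess. ORC6 was nearest to 0, with 0.24 and -0.31 after cyclic loess.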

How the results depend on the processing

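With 1 array per condition no replicate could be left out. The labels give no replicate numbers, and the pairing in limma is of control and OGE within each line. At 1.5-fold, 7 of the 48 genes were lower in HOS, 3 higher in HOS, 27 lower in U2-OS and 7 lower in both lines, against 9.68%, 7.43%, 18.5% and 5.82% of all genes at the floor. At 3-fold, HOS had 0 lower, U2-OS 2, and 0 were lower in both, against 0.141%, 1.68% and 0.0463%. Both follow from moving the threshold. With a floor at the 75th percentile 1 was lower in HOS (MCM6, without POLE2) and 8 in U2-OS, against 3.25% and 10.5%. After quantile normalization 1 was lower in HOS and 0 in both lines, against 2.06% and 0.971%. MCM6 then had -0.98 in HOS and lost its call there. The HOS median of the polymerase genes, 0.02, was -0.0275 under quantile normalization and -0.029 under cyclic loess, and the U2-OS median of the nucleotide supply genes was -0.7425 after quantile normalization. limma called 3 genes for OGE and 3 for cell line after quantile normalization, and 2 for cell line with trend and robust moderation, against 1.43%, 9.57% and 7.11% of all genes. For these counts and medians the cause was not tested. Of 98 alternatives for the counts and medians, 82 stayed the same within 1.5 times or 0.1 (log2). The fall from 12 to 8 lower in U2-OS with a floor at the 75th percentile is among these 82. Of 98 alternatives for single genes called by size, 78 kept the call and 20 lost it, and none changed sign. A call could not be lost at 1.5-fold, with no floor or with the mean of probe sets. Values, and so signs, could change only under quantile normalization and cyclic loess. Each of the 48 genes has 1 probe set, so the mean of probe sets could not change its value. Nor could it change the counts by size or the medians of the 48, so those alternatives were bound to stay the same. MCM7 lost its U2-OS call after quantile normalization and after cyclic loess, with -0.97 and -0.93. Normalization moved the median of all genes by less than 0.1. Signal near background limits DBF4, CDC7, ORC3 and ORC4, which lay below the floor on at least 1 array.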
